A study of Mus musculus with 5 samples.

Results

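Insl3 encodes insulin-like peptide 3, a small secreted hormone of the relaxin family, and it was described here in single ovarian cells of mice from 2 to 6 wk of age. It was taken by its name, as 1 of the 31053 genes listed in every library. The study followed how the first follicles to grow, the wave 1 follicles, and their theca cells contribute to the ovary around puberty, and it profiled dissociated ovaries by droplet single-cell RNA sequencing. There was 1 library at each of 2, 3, 4, 5 and 6 wk, all from untreated C57BL6/J mice with no transgene named, dissociated with trypsin and sorted for live cells by exclusion of a dead-cell dye. How many mice were pooled in a library is not given in the sources used here. With 1 library per age, age and library cannot be told apart and no test between ages was possible. Every interval below is a 95% interval that covers counting error only, and a fold between ages compares 2 libraries.

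Theca cells surround growing follicles and make androgens from cholesterol in response to luteinizing hormone (LH), and the granulosa cells inside the follicle turn these androgens into estrogens. Insl3 is made as a prohormone that is cut into an A and a B chain, and it acts through the receptor Rxfp2. It is best known as a product of the Leydig cells of the testis, where it drives testis descent, and of the theca cells of the ovary. Atretic follicles can leave theca cells behind as interstitial gland cells, which also make steroids.

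The place of Insl3 in the genome set a limit on its counting. In the GENCODE annotation of mouse build GRCm38, Insl3 (ENSMUSG00000079019) lies on the plus strand at chr8:71689214-71690575 and has 2 exons, which together hold 623 bases. Exon 1 runs from 71689214 to 71689432 and holds 219 bases. Exon 2 runs from 71690172 to 71690575 and holds 404 bases, or 64.8% of the transcript, including the stop codon and the 3′ end. The neighbouring gene Jak3 (ENSMUSG00000031805), a tyrosine kinase of lymphocyte cytokine receptors, lies on the same strand at chr8:71676296-71690575. Exon 25 of its transcript Jak3-201 has exactly the same first and last base as Insl3 exon 2. A read from the 3′ end that lies wholly in this exon therefore fits both genes, and only a read that reaches exon 1 is particular to Insl3. The junction is shown because it is where the letters particular to Insl3 end, with the last 30 bases of exon 1 in capitals and the first 30 bases of the shared exon in lower case, both coding.

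Insl3 exon 1 to exon 2 junction: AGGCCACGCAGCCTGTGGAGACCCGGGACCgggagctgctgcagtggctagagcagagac

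How the gene annotation used by the authors treats the shared exon was not examined here. A level of Insl3 in these files is thus best read against Insl3 in other cells, not against other genes. The bases before the Insl3 start lie within intron 24 of Jak3-201. The 212 bases before the annotated start lie at chr8:71689002-71689213 on the plus strand of GRCm38.p6 (RefSeq). They are shown because most Insl3 UMIs lay in cells that also held UMIs of steroid enzymes. Capitals mark CAAGGNC, the core letters of the motif of Nr5a1, a nuclear receptor of steroid-making cells, which was searched on both strands. The 2 matches start 99 and 19 bases before the gene start. Over the same stretch, 13.1% of the 32851 RefSeq promoters held at least 1 match and 1.23% held at least 2. A match of letters is not a measured binding site.

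Insl3 promoter: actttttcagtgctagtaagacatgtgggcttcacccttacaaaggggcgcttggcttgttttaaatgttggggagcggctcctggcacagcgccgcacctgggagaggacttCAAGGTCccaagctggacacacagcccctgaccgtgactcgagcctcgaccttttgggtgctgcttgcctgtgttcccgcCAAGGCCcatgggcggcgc

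The libraries held 7779 to 11077 cells with a median of 9056 to 12424 UMIs, the counted molecules, per cell. Of 47890 barcode sequences 273 occurred in 2 libraries, and the 546 cells that carried them held 20 Insl3 UMIs. The 5 wk and 6 wk libraries were written by Cell Ranger 6.0.1 and the other libraries by Cell Ranger 3.1.0, so this difference runs between 4 and 5 wk. Cells were clustered anew without Insl3 among the clustering genes, and clusters were named from marker genes, so the cell types may differ from those of the study. The 1490 theca-like cells fell into 2 clusters that both passed all 5 theca markers. The first, 908 cells led by Cyp11a1, Serpina5 and Bpifb4, is called the Cyp11a1 theca-like cluster. The second, 582 cells with Cpa1, Aldh1a7 and Dleu7 among its leading genes, is called the Cpa1 theca-like cluster. Markers were scored over all ages together, and its Cyp17a1 lay almost wholly at 5 wk, with 2992 UMIs in 109 cells. At 2, 3, 4 and 6 wk it held 20, 1, 81 and 36 Cyp17a1 UMIs in 109, 146, 121 and 97 cells. Of the 2979 Cyp11a1 UMIs of theca-like cells at 2 wk, 2967 lay in the Cyp11a1 theca-like cluster. Of their 920 Hhip and 624 Ptch1 UMIs at 2 wk, only 229 and 100 lay there. Most UMIs of Hhip and Ptch1, markers used below for early theca-like cells, thus lay in the Cpa1 theca-like cluster at 2 wk. The study describes an early theca cluster with low steroid enzymes that rose at 5 wk, and a match of the Cpa1 theca-like cluster to it was not tested. Without integration of the libraries, 475 cells formed a cluster of their own, 459 of them from the 5 wk library and holding 828 of its 928 Insl3 UMIs, so the cells richest in Insl3 at 5 wk stood apart from those of the other ages.

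Few UMIs were assigned to Insl3, and they lay mostly in theca-like cells of 1 library. All 5 libraries together held 1029 Insl3 UMIs in 385 of 48163 cells. There were 16 UMIs at 2 wk, 13 at 3 wk, 42 at 4 wk, 928 at 5 wk and 30 at 6 wk, so that the 5 wk library held 90.2% of them. Theca-like cells held 943 of the 1029 UMIs (91.6%), and the Cyp11a1 theca-like cluster alone held 931. The share of a library's Insl3 UMIs found in theca-like cells was 81.3% at 2 wk, 76.9% at 3 wk, 81.0% at 4 wk, 92.7% at 5 wk and 86.7% at 6 wk. Most Insl3 UMIs of each library thus lay in theca-like cells, though these held only 13 UMIs at 2 wk and 10 at 3 wk. At 3 wk their level did not pass the free-RNA floor given below.

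Cells that share a lineage or a neighbourhood with theca cells had few or none. Early theca-like cells, which were named from Hhip, Mest, Ptch1, Wfdc1 and Alpl, held 2 UMIs, both in 1 cell of the 706 at 2 wk, and 0 UMIs at every later age in 594, 489, 266 and 406 cells. The 4 named stromal types, 7284 cells in all, held 1 UMI at 4 wk, 1 at 6 wk and 0 at the other ages. No Insl3 UMI was found in the 3983 Tagln+ smooth muscle-like cells. Dividing mesenchymal cells held 0, 2, 2, 0 and 1 UMIs from 2 to 6 wk, in 372, 198, 185, 146 and 193 cells. At 5 wk the level in theca-like cells was 64.3 CPM (interval 60.1 to 68.7), the UMIs of the gene for every 1000000 UMIs of those cells. Early theca-like and stromal-like cells had 0 UMIs at this age and were set at the floor of 3 UMIs over the group. The theca-like level was 106 and 216 times these floors. The first fold was 19.6 when the libraries were clustered without integration and 11.4 with every cell thinned to 2000 UMIs.

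**Figure D1:**
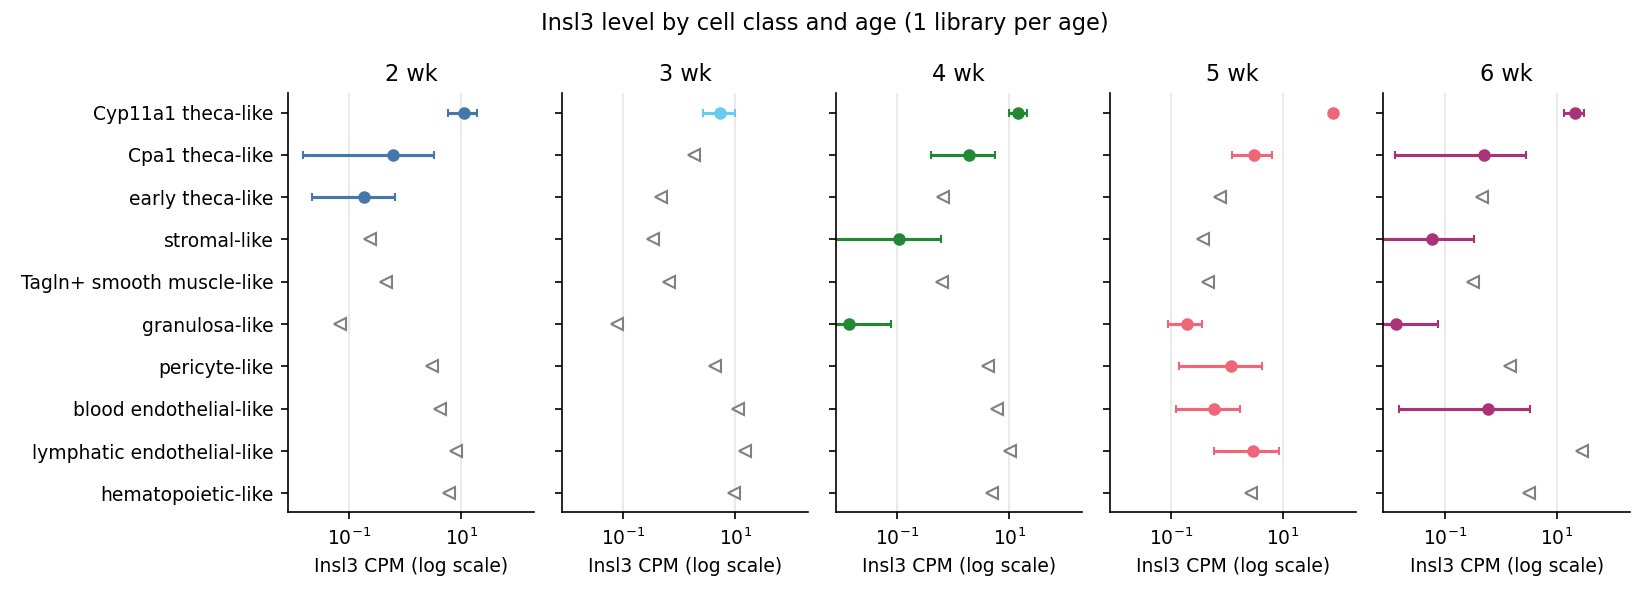
Insl3 level in CPM (log axis) by cell class in each of the 5 libraries. Points are summed UMIs with 95% counting intervals, and open triangles are the upper interval limit of classes with 0 UMIs; the Cyp11a1 theca-like cells had the highest measured level of the classes plotted at every age, 77.1 CPM at 5 wk.

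Granulosa-like cells, the layer next to the theca, held 0, 0, 1, 9 and 1 Insl3 UMIs from 2 to 6 wk in 3092, 3422, 5204, 2526 and 3841 cells. At 5 wk this was 0.191 CPM (0.0875 to 0.363), and theca-like cells were 336-fold higher (176 to 737). Of the 9 UMIs at 5 wk, 5 lay in a single cell that was called a doublet and that also held 38 UMIs of Cyp17a1, the enzyme that makes androgens in theca cells. The 9 UMIs lay in 5 cells, 3 of which also held Cyp17a1 UMIs.

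Hematopoietic-like cells gave the free-RNA level, since blood cells are not known to make this hormone. They held 0 Insl3 UMIs at every age, in 51, 50, 84, 181 and 129 cells from 2 to 6 wk. The 0 of 181 cells at 5 wk allow a share of up to 1.66% of cells with a UMI (3 of 181 cells), or 2.02% by the upper limit of the exact interval, at a median depth of 4989 UMIs, and 3 UMIs in these cells would be 2.19 CPM. Theca-like cells were at 29.3 times this floor at 5 wk. All 5 hematopoietic markers were present in these cells, Ptprc between 396 and 572 CPM. The floor in hematopoietic-like cells lay above the levels in early theca-like, stromal-like and granulosa-like cells, so no fold between these and the free-RNA level could be given at 5 wk. At 2 wk the 4.66 CPM of all theca-like cells was below the 4.93 CPM that 3 UMIs would be in hematopoietic-like cells. The 10.98 CPM of the Cyp11a1 theca-like cluster was 2.23 times this floor. Its lower interval limit, however, lay below the upper limit of 6.06 CPM in hematopoietic-like cells, so no fold above free RNA was bounded. At 3 wk this floor was 7.58 CPM, and neither group passed it. All theca-like cells were at 0.346 times the floor and the Cyp11a1 theca-like cluster at 0.716 times. At 4 and 6 wk all theca-like cells were at 2.28 and 3.14 times the floor. Their lower interval limits, 6.43 and 5.33 CPM, lay above the upper limits of 5.01 and 3.20 CPM in hematopoietic-like cells.

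The few vascular cells with Insl3 were at 5 and 6 wk. At 5 wk there were 3 UMIs in 267 blood endothelial-like cells, 3 in 81 lymphatic endothelial-like cells and 2 in 205 pericyte-like cells. The 3 lymphatic UMIs lay in 2 cells that held 87 and 252 Cyp17a1 UMIs. The 3 blood endothelial-like UMIs lay in 3 cells that held 0, 0 and 1 Cyp17a1 UMIs, and the 2 pericyte-like UMIs in cells that held 16 and 0. The blood endothelial-like level was 0.590 CPM (0.122 to 1.72), and the theca-like level was 109-fold higher (37.2 to 530). The 6 wk library added 1 UMI in a blood endothelial-like cell.

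Within the theca-like cells, Insl3 lay almost wholly in 1 of both clusters. In the Cyp11a1 theca-like cluster there were 12 UMIs in 61 cells at 2 wk, 10 in 129 cells at 3 wk, 31 in 175 cells at 4 wk, 853 in 489 cells at 5 wk and 25 in 54 cells at 6 wk. In the Cpa1 theca-like cluster there were 1, 0, 3, 7 and 1 UMIs in 109, 146, 121, 109 and 97 cells at the same ages. The level at 5 wk was 77.1 CPM (72.0 to 82.4) in the Cyp11a1 theca-like cluster against 3.03 CPM (1.22 to 6.24) in the Cpa1 theca-like cluster, a ratio of 25.4 (12.3 to 63.5). At 2 wk the ratio was 18.6 (2.76 to 797), which rests on 1 UMI in the Cpa1 theca-like cluster, and at 4 wk it was 7.59 (2.37 to 38.8). At 3 wk the Cyp11a1 theca-like cluster was at 3.58 times the floor of 3 UMIs in the Cpa1 theca-like cluster. At 6 wk it was 42.0 (6.88 to 1725), again against 1 UMI. The lower limit of each ratio given with an interval was above 1, while the upper limits against 1 UMI are wide. The 3.03 CPM of the Cpa1 theca-like cluster at 5 wk lay close to the 2.19 CPM that 3 UMIs would be in hematopoietic-like cells.

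The order of the ages in the Cyp11a1 theca-like cluster was 5 wk, 6 wk, 4 wk, 2 wk and 3 wk. The levels were 77.1 CPM at 5 wk, 21.0 CPM (13.6 to 31.1) at 6 wk, 14.7 CPM (9.97 to 20.8) at 4 wk, 10.98 CPM (5.67 to 19.2) at 2 wk and 5.43 CPM (2.60 to 9.98) at 3 wk. The 5 wk library was higher than the 2 wk library by a ratio of 7.02 (4.00 to 13.6), and the 6 wk over 5 wk ratio was 0.273 (0.176 to 0.406). Below 5 wk in this order, neighbours did not differ beyond counting error. The ratio was 1.43 (0.812 to 2.51) for 6 wk over 4 wk, 1.34 (0.668 to 2.86) for 4 wk over 2 wk and 2.02 (0.801 to 5.23) for 2 wk over 3 wk. Ages further apart in the order differed beyond counting error where 3 wk was the lower one. The 3 wk level rests on 10 UMIs and did not pass the free-RNA floor of 7.58 CPM. The ratio was 2.71 (1.29 to 6.19) for 4 wk over 3 wk and 3.88 (1.80 to 9.05) for 6 wk over 3 wk. For 6 wk over 2 wk it was 1.92 (0.928 to 4.19).

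The contrasts were larger over all theca-like cells together, among which the Cyp11a1 theca-like cluster made up 61 of 170 theca-like cells at 2 wk, 489 of 598 at 5 wk and 54 of 151 at 6 wk. The theca-like level was 4.66 CPM (2.48 to 7.96) at 2 wk, 2.62 CPM (1.26 to 4.81) at 3 wk, 9.28 CPM (6.43 to 13.0) at 4 wk, 64.3 CPM at 5 wk and 8.17 CPM (5.33 to 12.0) at 6 wk. The 5 wk over 2 wk ratio was 13.8 (8.03 to 26.0) and the 6 wk over 5 wk ratio was 0.127 (0.0825 to 0.187). A definition that does not use clusters, any cell with a UMI of each of the steroid enzymes Cyp11a1, Hsd3b1 and Cyp17a1, gave 9.27 (5.49 to 17.0) and 0.135 (0.0887 to 0.198). These cells numbered 633 at 5 wk and held 917 of its 928 Insl3 UMIs. When the libraries were clustered without integration, the named theca-like cells gave 1.76 (0.869 to 3.95) and 1.35 (0.786 to 2.27) for these ratios and held 4.42% of the 5 wk Insl3 UMIs, since the separate 5 wk cluster was then left unnamed as a cluster of 1 library. With that cluster counted as theca-like they were 5.91 and 0.357.

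The share of cells with an Insl3 UMI followed the same order at the top. In the Cyp11a1 theca-like cluster it was 18.0% (9.36% to 29.98%) at 2 wk, 6.20% (2.72% to 11.9%) at 3 wk, 15.4% (10.4% to 21.6%) at 4 wk, 55.8% (51.3% to 60.3%) at 5 wk and 20.4% (10.6% to 33.5%) at 6 wk. Depth differed between these cells, with medians of 18968 UMIs at 2 wk, 11787 at 4 wk and 20506 at 5 wk. With every cell thinned to 10000 UMIs the shares were 9.98%, 3.92%, 14.5%, 39.6% and 14.7% from 2 to 6 wk, over 50, 101, 116, 471 and 45 cells deep enough. With every cell thinned to 2000 UMIs they were 1.85%, 1.13%, 2.79%, 12.7% and 3.12%. The 5 wk share stayed the highest at both depths, while 2 and 4 wk changed places.

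Insl3 was unevenly spread among the cells of the Cyp11a1 theca-like cluster at 5 wk. The median cell held 1 UMI, 166 of 489 cells held 2 or more, 49 held 5 or more and 15 held 10 or more. The highest cell held 53 UMIs and the next held 20. The 49 cells with the most Insl3 held 50.9% of the UMIs of the cluster. Had the UMIs followed only the depth of each cell, 77.8% of cells would have held one, against the 55.8% measured. The variance over the mean was 6.96, against a median of 1.68 over the 1546 genes with a mean within 1.5 times that of Insl3, and 17 of these genes had a larger value. Hemoglobin genes (Hba-a1, Hba-a2, Hbb-bt), Acta2 and Dcn led those 17 and were chosen after their values were seen; they are markers of red blood cells, muscle cells and fibroblasts. Without the cell with 53 UMIs the level was 72.6 CPM. That cell also weighs on the variance over the mean, which was not computed without it.

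**Figure D2:**
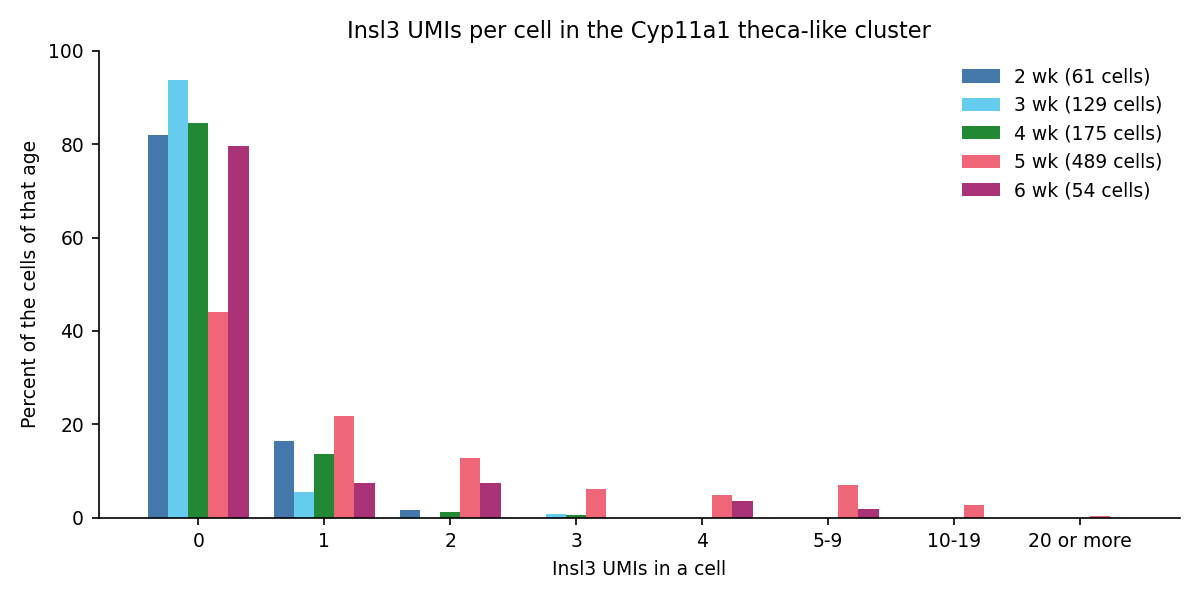
Share of cells (percent, bars) by the number of Insl3 UMIs they held in the Cyp11a1 theca-like cluster, in each library. At 5 wk 49 of 489 cells held 5 or more UMIs, and at the other ages together 1 cell did.

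Cells with 5 or more Insl3 UMIs numbered 55 in all. The Cyp11a1 theca-like cluster held 49 of them at 5 wk and 1 at 6 wk. The other 5 were the granulosa-like doublet and 4 cells at 5 wk of an unnamed cluster with theca markers whose leading genes, Amh and Nr5a2, are granulosa genes. That cluster had 42 cells at 5 wk, of which 52.4% were called doublets, with 47 Insl3 UMIs or 33.1 CPM (24.3 to 44.0). Each of its 4 cells with 5 or more Insl3 UMIs held 0 Amh UMIs and 78 to 375 Cyp17a1 UMIs. They also held 1 to 21 UMIs of the granulosa marker Fst. Among these 4, only the cell with 78 Cyp17a1 UMIs was called a doublet.

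The theca-like cells were also clustered among themselves, which gave 5 clusters. At 5 wk the cluster led by Tmprss6, Ren1 and Mal had 89.3 CPM (79.8 to 99.6) of Insl3 in 156 cells. The cluster led by Ifit1, Cxcl1 and Cxcl10, genes of the interferon and chemokine response, had 79.0 CPM (71.8 to 86.8) in 247 cells. Of its 440 Insl3 UMIs at 5 wk, 53 lay in 1 cell. The cluster led by Mcf2l, Stk32a and Piezo2 had 48.3 CPM (37.9 to 60.6) in 75 cells. The 3 clusters with the highest level lay almost wholly in the Cyp11a1 theca-like cluster, with 100%, 99.2% and 96.0% of their cells at 5 wk in the order given.

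The other clusters had much less. The cluster led by the contractile genes Myh11 and Tagln had 12.7 CPM (7.11 to 21.0) at 5 wk in 52 cells, and the cluster led by the division gene Ccnb2 had 6.64 CPM (3.19 to 12.2) in 68 cells. These 5 clusters were made from the cells compared, so the order is a description. The Tmprss6 and Ren1 cluster also held 9 of the 13 theca-like Insl3 UMIs at 2 wk, 10 of 34 at 4 wk and 19 of 26 at 6 wk, in 38, 56 and 19 cells. Its 6 wk level was 42.4 CPM (25.5 to 66.2), against 8.94 CPM (2.90 to 20.9) in the Mcf2l cluster of the same library. At 3 wk the Tmprss6 and Ren1 cluster held only 2 UMIs in 49 cells, and the Ccnb2 cluster held 4 in 63 cells. At 4 wk the Ifit1 and Cxcl1 cluster held 12 UMIs in 47 cells, more than the 10 of the Tmprss6 and Ren1 cluster. The Ifit1 and Cxcl1 cluster was almost absent at 2 and 6 wk, with 5 and 3 cells.

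**Figure D3:**
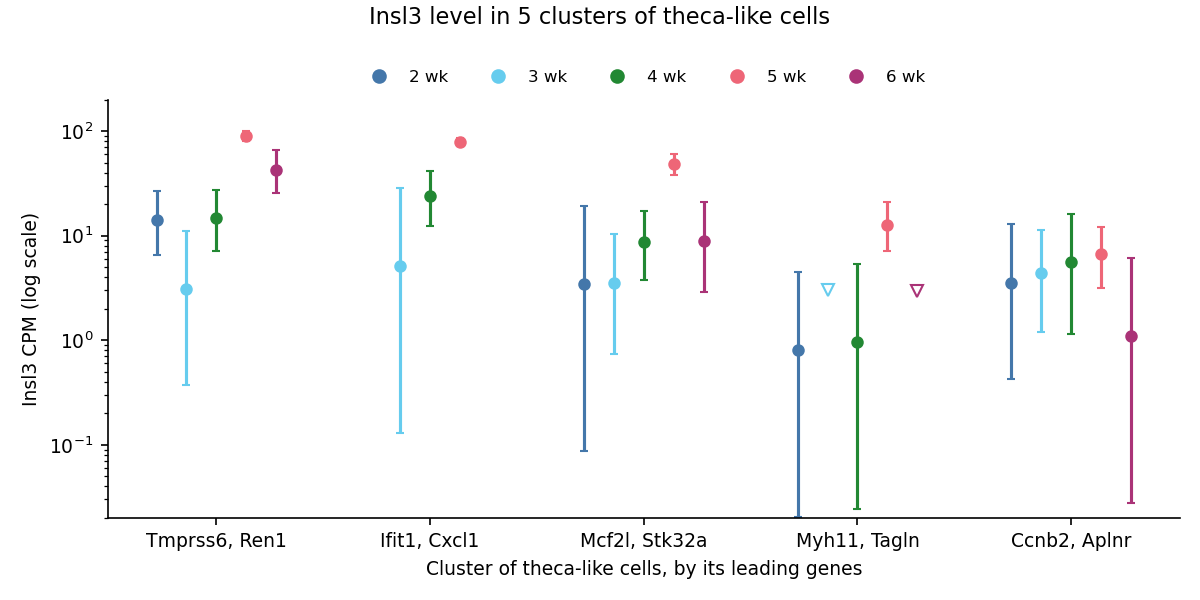
Insl3 level in CPM (log axis) in 5 clusters of theca-like cells, named by their leading genes, in each library with at least 10 cells of the cluster. Points carry 95% counting intervals and open triangles are upper limits where there were 0 UMIs; the Tmprss6, Ren1 cluster had 89.3 CPM at 5 wk and 42.4 CPM at 6 wk.

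Insl3 was then set beside Cyp17a1, counted in the same cells. In the Cyp11a1 theca-like cluster the Cyp17a1 level was 2633 CPM at 2 wk, 180 CPM at 3 wk, 664 CPM at 4 wk, 3460 CPM at 5 wk and 917 CPM at 6 wk. Cyp17a1 was thus nearly as high at 2 wk as at 5 wk, while Insl3 was not. There were 4.17 Insl3 UMIs per 1000 Cyp17a1 UMIs at 2 wk (2.15 to 7.29), 30.1 at 3 wk (14.3 to 56.1), 22.1 at 4 wk (15.0 to 31.5), 22.3 at 5 wk (20.8 to 23.8) and 22.9 at 6 wk (14.8 to 34.0). The intervals of 3 to 6 wk overlapped, and that of 2 wk lay below all of them.

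**Figure D4:**
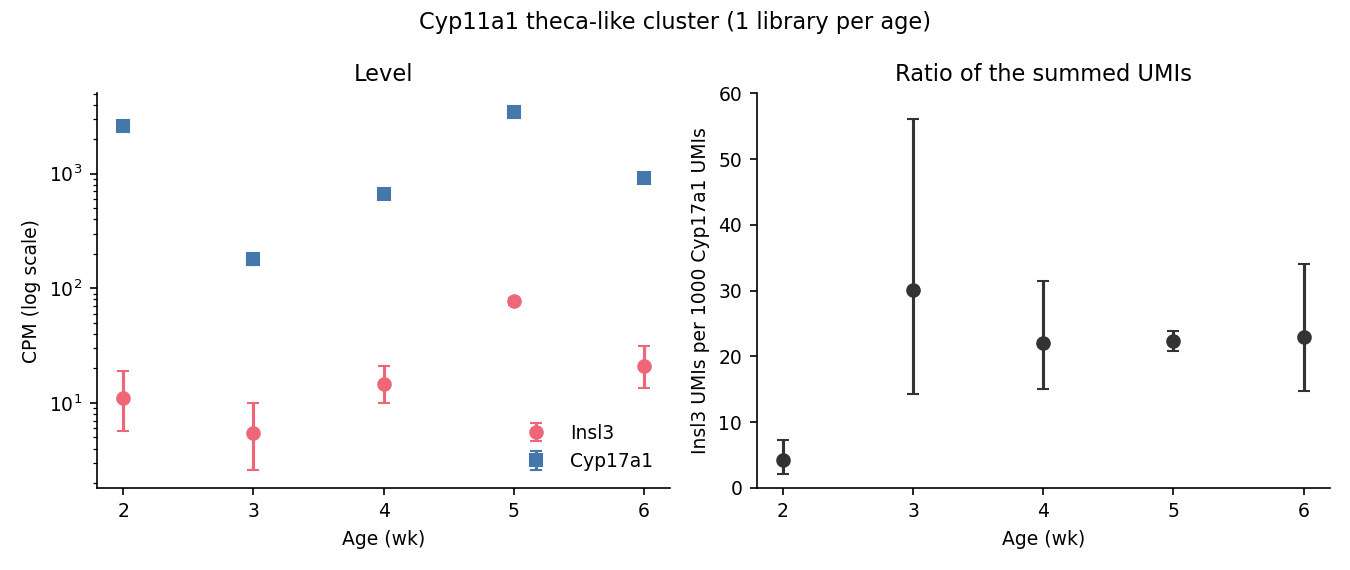
Left, CPM (log axis) of Insl3 and Cyp17a1 in the Cyp11a1 theca-like cluster of each library; right, Insl3 UMIs per 1000 Cyp17a1 UMIs in the same cells, both with 95% counting intervals. The ratio was 4.17 at 2 wk and 22.1 to 30.1 from 3 to 6 wk.

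The same ratio separated the theca-like clusters at 5 wk. The Cpa1 theca-like cluster had 2992 Cyp17a1 UMIs, or 1295 CPM, with 7 Insl3 UMIs, which is 2.34 per 1000 (0.940 to 4.83). At the ratio of the Cyp11a1 theca-like cluster, the same Cyp17a1 UMIs would have come with 66.6 Insl3 UMIs. At the other ages the Cpa1 theca-like cluster had at most 81 Cyp17a1 UMIs, too few to tell its ratio from that of the Cyp11a1 theca-like cluster. The doublet-rich unnamed cluster had 20.1 per 1000 (14.7 to 26.8), close to the 22.3 of the Cyp11a1 theca-like cluster. Hematopoietic-like cells at 5 wk held 138 Cyp17a1 UMIs, 124 of them in 1 cell, and at the ratio of the Cyp11a1 theca-like cluster these would have come with 3.07 Insl3 UMIs against the 0 found. In granulosa-like cells 231 Cyp17a1 UMIs would have come with 5.15 Insl3 UMIs against the 9 found. Lymphatic endothelial-like cells had 342 Cyp17a1 UMIs, which would have come with 7.62 Insl3 UMIs against the 3 found. Pericyte-like cells had 21, with 0.468 against 2. Blood endothelial-like cells had 13, with 0.290 against 3. This was 231 per 1000 (42.2 to 840), above the interval of the Cyp11a1 theca-like cluster. The theca-like clusters themselves differed in this ratio, so the ratio of free theca RNA is not known. The part of free RNA in these few UMIs was not tested.

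Other genes of theca biology were compared between 5 and 2 wk within the Cyp11a1 theca-like cluster, as a setting for the Insl3 ratio of 7.02. A gene was counted as past the fold where the ratio was at least 2 in either direction and its counting interval excluded 1, which describes these 2 libraries and is not a test. Over the 9762 genes with at least 50 UMIs, 8.46% were higher and 6.7% lower at 5 wk by this rule, with a median ratio of 0.970. Insl3 was among the genes higher at 5 wk, and 194 genes had a larger ratio, 87 of them with 0 UMIs at 2 wk.

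Of 10 genes of steroid synthesis, 3 were past the fold and all 3 were higher at 5 wk. Srd5a1, which reduces androgens, was at 192 CPM at 5 wk and 36.6 CPM at 2 wk, a ratio of 5.25 (3.84 to 7.37). Star, which carries cholesterol into mitochondria, was at 494 and 201 CPM, a ratio of 2.46 (2.15 to 2.82). Cyp11a1, which makes the first steroid from cholesterol, had a ratio of 2.18 (2.10 to 2.26). Cyp17a1 had a ratio of 1.31 and Hsd3b1 of 1.17, both well under that of Insl3, and the redox partners Fdx1 and Fdxr had 1.36 each. Por, the redox partner of Cyp17a1, was at 0.593 (0.526 to 0.670). The median ratio of the list was 1.33, against 0.970 over all genes compared.

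Of 9 genes of the LH response and its regulators, 1 was higher and 1 was lower past the fold. Nr0b1, a repressor of Nr5a1, was at 15.3 CPM at 5 wk and at 1.83 CPM at 2 wk, where it had 2 UMIs, a ratio of 8.35 (2.28 to 69.5). Gata6, a transcription factor of gonadal steroid cells, was at 2.17 CPM at 5 wk and at 31.1 CPM at 2 wk, a ratio of 0.0697 (0.0396 to 0.121). The LH receptor Lhcgr had a ratio of 0.735 (0.642 to 0.844), and Nr5a1 had 0.829 (0.722 to 0.956). The median ratio of these 9 genes was 0.829, below the 0.970 of all genes.

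The hedgehog response genes went the other way from Insl3. Hedgehog ligands from granulosa cells act on early theca cells, and Ptch1 and Hhip are targets of the pathway. Hhip was at 8.94 CPM at 5 wk and 209 CPM at 2 wk, a ratio of 0.0427 (0.0334 to 0.0543), and Ptch1 was at 41.7 and 91.5 CPM, a ratio of 0.456 (0.367 to 0.572). Both of the 2 members that could be compared were thus lower at 5 wk, and Gli1 had too few UMIs. Hhip and Ptch1 are also among the markers that named the early theca-like cells, which bears on which cells stand in each cluster. At 6 wk Hhip was at 168 CPM and Ptch1 at 167 CPM in the same cluster, where Insl3 was at 21.0 CPM.

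**Figure D5:**
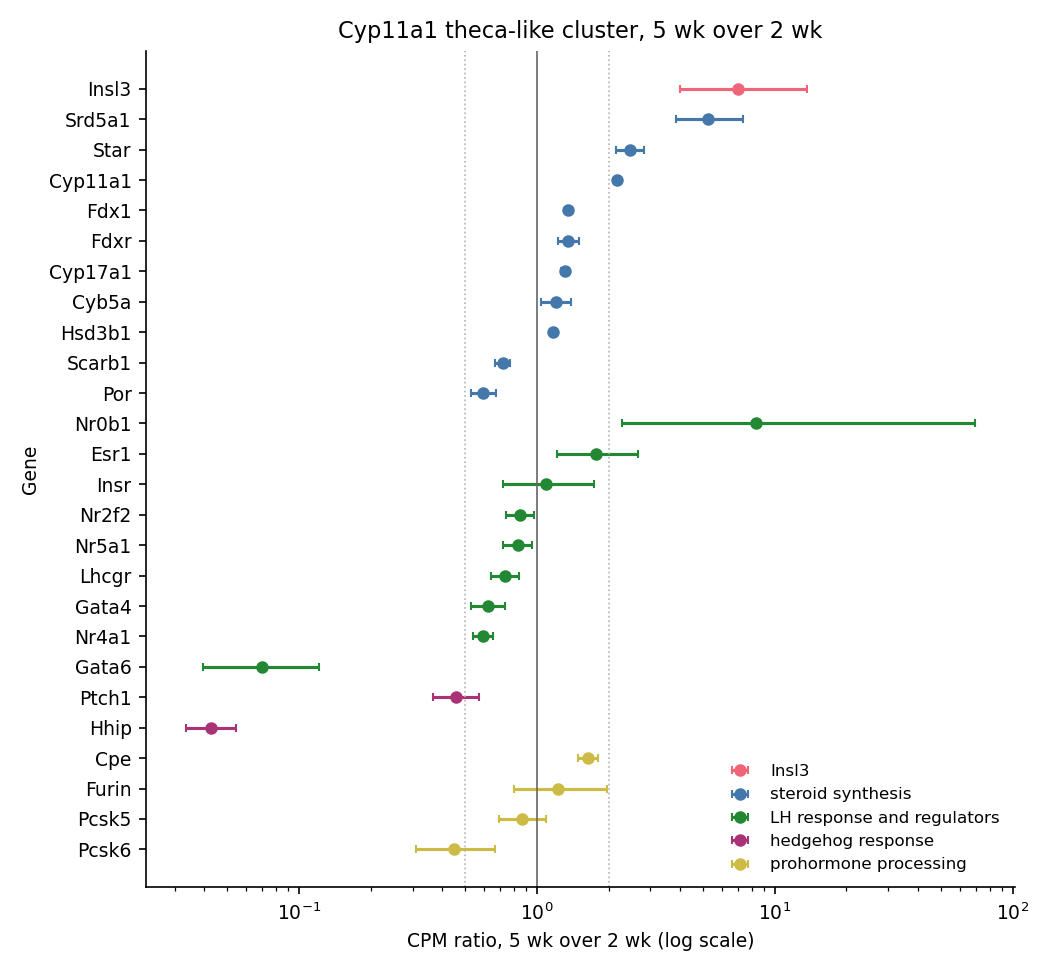
Ratio of CPM at 5 wk over 2 wk (log axis) in the Cyp11a1 theca-like cluster for Insl3 and the members of 4 gene lists with at least 50 UMIs, with 95% counting intervals; dotted lines mark a ratio of 2 in either direction. Insl3 lies at 7.02, Cyp17a1 at 1.31 and Hhip at 0.0427.

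Of 6 enzymes that process prohormones, 4 had enough UMIs to compare and 1 of these was past the fold, lower at 5 wk. Furin, the general prohormone convertase, was at 25.7 CPM at 5 wk and 21.0 CPM at 2 wk, a ratio of 1.22 (0.7997 to 1.96). Pcsk5 had a ratio of 0.863 (0.689 to 1.09), and Cpe, which trims the ends left by the convertases, was at 641 and 392 CPM, a ratio of 1.63 (1.48 to 1.80). Pcsk6 was the member past the fold, at 0.449 (0.310 to 0.667). Pcsk1 and Pcsk2, the convertases of endocrine and nerve cells, had too few UMIs to compare, with 0 and 1 UMIs at 5 wk.

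The receptor of Insl3 was nearly absent from these cells. No class of germ cells was named here, and the study held that germ cells were likely too rare to cluster, so oocytes are not covered. Rxfp2 had 52 UMIs in 48163 cells, of which 37 lay in granulosa-like cells, 7 in the 4 stromal types and 1 in theca-like cells. The other relaxin receptors Rxfp1, Rxfp3 and Rxfp4 had 23, 6 and 1 UMIs. Of the other relaxin family ligands, Insl6 had 1586 UMIs, 1238 of them in granulosa-like cells and 39 in theca-like cells, so it was not confined to the cells with Insl3. Rln1 had 186 UMIs, 121 of them in granulosa-like cells, and Insl5 and Rln3 had 27 and 13.

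Of the 5 theca markers, from which the cluster was named, Bpifb4, Mgarp and Cyp11a1 were higher at 5 wk past the fold, with ratios of 5.17, 4.02 and 2.18. Plin1, which coats lipid droplets, had 0.659 (0.562 to 0.777). Markers of other cells in the Cyp11a1 theca-like cluster differed in level. At 5 wk the hematopoietic markers Laptm5, Tyrobp, Coro1a and Cd52 had 3, 6, 2 and 5 UMIs in 489 cells, and Ptprc had 0. The T and natural killer cell markers Cd3e, Cd3d and Nkg7, taken because Jak3 is expressed there, had 0 UMIs at 5 wk. Of the luteal markers, Akr1c18 had 0 UMIs, Ptgfr 6 and Parm1 50 at 5 wk. The granulosa markers Amh, Fst and Nr5a2 had 13, 10 and 18 UMIs. Foxl2, a transcription factor of granulosa cells, had 365 UMIs or 33.0 CPM at 5 wk against 50.3 CPM at 2 wk, a ratio of 0.656 (0.493 to 0.887). Inha, the inhibin alpha subunit, was at 924 CPM at 5 wk against 305 CPM at 2 wk and was the 1 of 2 comparable granulosa markers past the fold. The part of other cells in the Insl3 values was not tested.

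Jak3, which shares its last exon with Insl3, had another pattern. It had 697 UMIs in all libraries and was at 12.3 to 16.7 CPM over the ages in blood endothelial-like cells and at 6.57 to 17.6 CPM in hematopoietic-like cells, where Insl3 had 0 UMIs. In the Cyp11a1 theca-like cluster Jak3 had 0, 4, 6, 43 and 0 UMIs from 2 to 6 wk. Its 5 wk level there was 3.88 CPM (2.81 to 5.23), and its part in the shared exon cannot be told apart from that of Insl3.

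The genes whose pattern was most like that of Insl3 were sought over 71 groups of a named class and an age with at least 20 cells, of which 18 held an Insl3 UMI. Likeness was Pearson's correlation of log2(CPM + 1) over these groups, which share libraries and depth, and it has no p. Mgat4c, a glycosyltransferase gene, came first of 14567 genes with r = 0.94. Its theca-like level was 121 CPM at 5 wk and 2.20 to 11.5 CPM at the other ages, so that it shared the 5 wk maximum. Bpifb1 had r = 0.90, Oca2 0.87, and Fdx1, the ferredoxin that feeds electrons to Cyp11a1, 0.85. Hao2 had r = 0.85, Serpina5 0.84, Bpifb4 0.84, Serpina3a 0.84, Lhcgr 0.83 and Ush1g 0.82. The highest level outside theca-like cells was in lymphatic endothelial-like cells for 7 of these 10 genes, the cells whose 5 wk Insl3 UMIs came with Cyp17a1. Of the lists above, Cyp17a1 had r = 0.82, Cyp11a1 0.77, Nr5a1 0.61 and Jak3 0.11. The 10 genes of steroid synthesis ran from -0.18 (Cyb5a) to 0.85 (Fdx1), with Star at 0.45 and Por at 0.36. The genes of the LH response and its regulators ran from -0.40 (Gata6) to 0.83 (Lhcgr). Cyp17a1, Cyp11a1 and Bpifb4 are among the markers that named the theca-like cells, so their r is not independent of how the groups were made. With a pseudocount of 10 CPM 4 of the 10 genes remained among the first 10, Mgat4c among them.

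Within theca-like cells Insl3 was too sparse to rank other genes. After thinning to 2000 UMIs it had 2, 4, 11, 79 and 2 UMIs from 2 to 6 wk. The highest mean Spearman's rho over the 5 libraries among 709 genes was 0.151, for Cyp11a1, followed by Hsd3b1 at 0.114. Slc25a3, Spcs2, Aebp1, Uqcr10, Ppp1ca, Rtn4, Cited2 and Pdia3 came next, at 0.0874 to 0.108.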

How the data were processed

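The authors made the deposited files with Cell Ranger (3.1.0 for 2, 3 and 4 wk, 6.0.1 for 5 and 6 wk, per the file headers), with mm10 as the build in the submitters' processing notes, and the values are raw counts of UMIs per gene and cell in filtered matrices; the labels also name Seurat 4.1.0. All 48163 deposited barcodes were kept. As in the study's methods, the libraries were integrated, here in Seurat 5.3.0 (R 4.3.3) on 1999 of 2000 variable genes, Insl3 left out, and clustered at resolution 1 with 30 components (mesenchymal cells once more, then theca-like cells at 0.5). A cluster was named where at least 3 markers were in 10% of its cells and 1.5 times the median cluster, and left unnamed under 30 cells, over 90% of 1 library, with low UMIs, or with 50% doublets or more. Clusters of mesenchymal cells also needed markers that lay, on average, at least 1 standard deviation above the mean of the clusters in log level. Where several types passed, the type with the highest such average was taken. Part of the naming rule, the one on clusters led by granulosa genes, was set after the clusters were seen. Scrublet called 1487 doublets (scanpy 1.11.5), which were kept.

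Levels (CPM) are summed UMIs scaled to 1000000 per class and library, with exact Poisson intervals, shares have Clopper-Pearson intervals, and ratios have exact intervals given the sum of both counts, all covering counting error only. Classes with 0 UMIs were set at 3, and a fold or bound over them takes the measured level of the other class without its counting error. The intervals and likeness ranking were tried on simulated data that held counting error only, and thinning on random draws. These trials held no spread between cells, mice or libraries, so they cannot tell whether the intervals are wide enough for clumped UMIs. The gene, the lists and the markers were chosen with earlier results of these data known. Named genes are the members of the lists (1 member of the list of LH response genes is not reported here), and the 10 genes most like Insl3 over groups (at least 200 UMIs) and within theca-like cells (in at least 20% of cells of each library), ribosomal and mitochondrial genes left out. Alternatives are in the closing section; TMM factors came from edgeR 4.0.16.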

Additional observations from a re-analysis of the deposited data

Results flagged for a closer look

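Insl3 appeared above the level of hematopoietic-like cells of the same library in 2 groups of cells that no class of the report includes. The unnamed cluster led by the granulosa genes Amh and Nr5a2 had 33.1 CPM at 5 wk (24.3 to 44.0, 47 UMIs in 42 cells), and 52.4% of these cells were called doublets. An unnamed cluster led by Hao2, with 46 of its 49 cells from 5 wk and a median of 764 UMIs per cell there, had 94.2 CPM (25.7 to 241), which rests on 4 UMIs.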

How the results depend on the processing

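The 5 wk over 2 wk ratio in theca-like cells (13.8) was above 1 under all 14 alternatives, and the 6 wk over 5 wk ratio (0.127) was below 1 under 13 of 14. Libraries merged without integration gave 1.76 (0.869 to 3.95) for the first and 1.35 (0.786 to 2.27) for the second, which reversed it. Both of these intervals held 1. The same setting gave 19.6 for theca-like over early theca-like cells and 4.42% of 5 wk Insl3 UMIs in theca-like cells. The separate cluster with 459 cells of 5 wk was then unnamed. With that cluster added, which was chosen after seeing the data, as were the next 3, the first 3 values were 5.91, 0.357 and 73.4. The Cyp11a1 theca-like cluster alone gave 7.02 and 0.273. Leaving out the cell with the most Insl3 UMIs gave 13.0 and 0.135, and the theca-like cluster of the first clustering placed 98.2% of 5 wk UMIs in theca-like cells. The bound of theca-like over early theca-like cells (106) was 117 at resolution 0.6, 84.7 under a stricter cell filter (1000 genes or more, mitochondrial share below 10%), which kept 386 of the 860 theca-like Insl3 UMIs at 5 wk, and 11.4 with cells thinned to 2000 UMIs, where fewer UMIs raise the floor. The share in theca-like cells (92.7%) was 95.5% without doublets, 90.6% under the same filter, 98.8% for cells with all 3 steroid enzymes and 95.8% after thinning. Subtracting the hematopoietic-like level changed nothing, as it was 0. Of the 10 genes most like Insl3, 7 were kept with at least 20 UMIs and 4 with a pseudocount of 10 CPM.

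No ratio of early theca-like, stromal-like or granulosa-like over hematopoietic-like cells could be given at 5 wk under any setting, since the hematopoietic-like cells had 0 UMIs and their floor lay above those levels. No library could be left out, with 1 per age. No paired analysis was possible because each age has 1 library and the labels carry no replicate numbers. Outside the 5 wk library the values of Insl3 rest on 13 to 42 UMIs per library, which sets their precision.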
